A study of Homo sapiens with 2 samples.

Results

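The genes described here are DDIT4 and its paralog DDIT4L, the sestrin genes SESN1, SESN2 and SESN3, the tuberous sclerosis genes TSC1 and TSC2, the GTPase gene RHEB, and the S6 kinase genes RPS6KB1 and RPS6KB2. They were taken as every transcript row of the array files that carried one of these 10 symbols. That gave 21 rows for 10 of the 23595 genes measured, with 1 row for 2 genes, 2 rows for 5 genes and 3 rows for 3 genes. The set was selected on measured values, since the DDIT4 difference between these same arrays was known when it was drawn up, so the values below are a description. RNA came from Panc1, an established cell line grown from a human carcinoma of the pancreatic duct. Per the labels, cells had been pretreated for 24 h with the solvent DMSO or for 24 h with clofibrate. The word pretreated is that of the labels, and any step after it is not described here. Clofibrate is a lipid-lowering fibrate and agonist of the nuclear receptor PPARalpha, and its dose is not given in the sources used here. Each treatment had 1 array, so no difference has a replicate check and no test was run. That number of arrays limits how precise any value can be.

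The kinase complex mTORC1 drives protein synthesis and cell growth when nutrients and growth factors are present. It is switched on at the lysosome by the GTPase RHEB, and the TSC1-TSC2 complex holds RHEB in its inactive state. Stress acts through this brake: DDIT4 (also called REDD1) is induced by hypoxia, DNA damage and glucocorticoids and acts through TSC2, while sestrins are induced by p53, ATF4 and FOXO factors and restrain mTORC1 through the amino acid sensing GATOR complexes and through AMPK.

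The bases before the DDIT4, DDIT4L and SESN2 start sites are shown because DDIT4 is the member that stood apart, DDIT4L is its closest relative and lay on the other side of 0, and SESN2 is a stress-induced sestrin that read nearly the same on both arrays. Each run is the 250 bases before the start site, 5′ to 3′ on the gene's own strand, from RefSeq on GRCh38.p14: chr10:72273674-72273923 (+) for DDIT4, chr4:100190469-100190718 (-) for DDIT4L and chr1:28259268-28259517 (+) for SESN2. Capitals mark ACGTG or GCGTG, the core letters bound by hypoxia-inducible factors, on either strand.
DDIT4: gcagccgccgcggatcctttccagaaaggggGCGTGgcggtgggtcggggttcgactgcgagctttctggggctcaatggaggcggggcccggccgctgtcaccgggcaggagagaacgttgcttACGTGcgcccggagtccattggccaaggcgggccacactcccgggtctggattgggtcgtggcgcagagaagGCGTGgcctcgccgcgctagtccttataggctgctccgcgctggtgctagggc
DDIT4L: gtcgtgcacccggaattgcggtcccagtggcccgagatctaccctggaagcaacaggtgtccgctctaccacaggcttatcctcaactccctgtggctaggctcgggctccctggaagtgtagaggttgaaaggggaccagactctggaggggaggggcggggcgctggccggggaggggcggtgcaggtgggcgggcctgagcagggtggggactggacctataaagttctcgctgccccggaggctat
SESN2: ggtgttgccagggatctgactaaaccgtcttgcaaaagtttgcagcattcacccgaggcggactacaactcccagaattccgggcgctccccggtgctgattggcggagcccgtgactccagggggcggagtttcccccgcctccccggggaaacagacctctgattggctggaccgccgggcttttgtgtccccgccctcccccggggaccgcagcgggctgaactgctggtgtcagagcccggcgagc

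The DDIT4 window held ACGTG once, 125 bases before the start site, and GCGTG at 219 and 53 bases before it, all on the forward strand. Neither letter run occurred in the DDIT4L or SESN2 windows. Of 35116 promoter windows of the same length, 18.5% held ACGTG and 32.2% held GCGTG on either strand, so such matches are common. All 10 members had at least 1 window. Besides DDIT4, RHEB and TSC2 held ACGTG and SESN1 held GCGTG, and the TSC2 match overlapped the E-box CACGTG. The ATF4-type run TGATGNNA occurred for SESN3 and TSC2 (10.8% of windows), and the TATA box TATAAA for DDIT4L (10.7%). None of the 10 genes had the cyclic AMP element TGACGTCA (1.65% of windows). These are letter matches in a short window, not measured binding.

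Each array gave 1 intensity per transcript row, summarised from 3 probes. The median over all 45033 rows was 402 on both arrays, and 5000 random probes, which give a background level, read 48.7 with DMSO and 48.1 with clofibrate. A gene's level was the mean log2 intensity over its rows, and its difference was clofibrate minus DMSO on the log2 scale. Genes are called bright where their mean of both arrays reached the median gene, 8.51 on the log2 scale, which 11798 did. Of 8 epithelial and duct markers, KRT8 and KRT18 were bright, and KRT19 read 5.65 and 5.12 on the log2 scale, the second value below the random probes. All 4 mesenchymal markers (VIM, FN1, ZEB1, CDH2) were bright. Of 23 markers of acinar, islet, leukocyte, fibroblast and endothelial cells, 3 were bright, CEL and COL1A1 among them. The summed intensity of those 5 lists ran from 8.40 to 11.51 on the log2 scale with DMSO and from 8.50 to 11.44 with clofibrate.

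DDIT4, which encodes a stress-induced inhibitor of mTORC1, was 1.52-fold higher with clofibrate. Its row BC007714 had an intensity of 2389 with DMSO and 3619 with clofibrate, a log2 difference of 0.60. Its row NM_019058 had 697 and 1069, a log2 difference of 0.62. Both rows were thus higher on the clofibrate array, and by nearly the same amount. Both map to chromosome 10 on hg18, from 73703694 to 73705794 and from 73703682 to 73705803. The rows overlap almost entirely and their intensities differ, so they are not copies of 1 probe set. Probe positions were not used here, so shared single probes cannot be told. As the mean of both rows, DDIT4 differed by 0.61, and the SD of the difference over the 590 genes in its bin of similar level was 0.23 (the SD at similar level). In a bulk RNA sample, a higher level in every cell and a much higher one in some of the cells cannot be told apart.

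DDIT4 ranked 136th of the 11798 bright genes from the highest difference down, so that 1.15% of bright genes lay at least as high. Among the 3790 genes at or above its level, 13 lay at least as high, DDIT4 included. Against a threshold of 1.5-fold (0.585 on the log2 scale), DDIT4 was the only bright member that passed. Counted over bright genes, 1.31% passed in the higher direction, 1.32% in the lower and 2.64% in either. With dim genes included, 2 of the 10 members passed as measured, DDIT4 higher and DDIT4L lower, and 9.15% of all genes did, 4.53% being higher and 4.62% lower. The contrast chose the set, so nothing is read from that count. DDIT4 lay just past the threshold: once a trend of the difference with gene span was removed, it was at 0.58 and no longer passed.

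**Figure D1:**
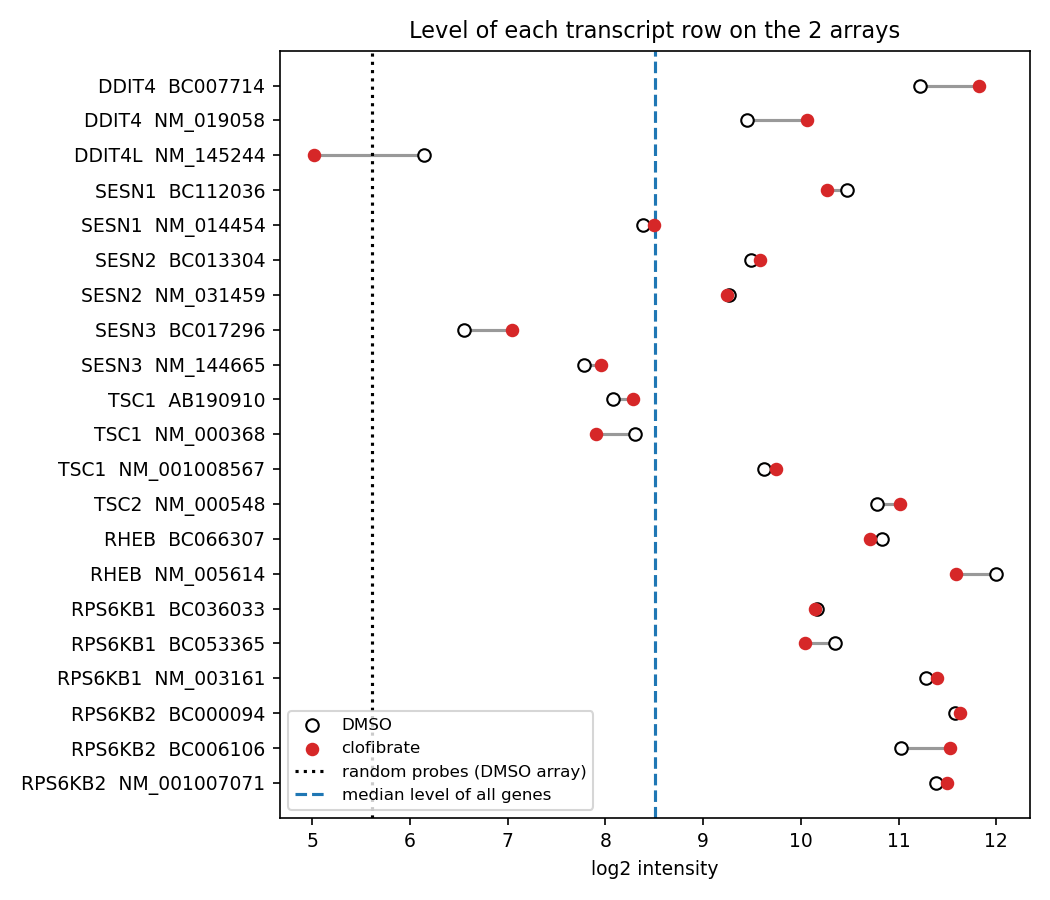
Log2 intensity of each of the 21 transcript rows (vertical axis) with DMSO (open circles) and clofibrate (red circles), 1 array each. Both DDIT4 rows lie to the right with clofibrate by 0.60 and 0.62, and the DDIT4L row crosses the level of the random probes.

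The paired rows of DDIT4 gave a closer match than most genes did. Among 3723 genes with exactly 2 bright rows, the median gap between their 2 differences was 0.21, and DDIT4 had 0.02. A gap that small or smaller was seen in 4.35% of these genes. Of 5794 genes with at least 2 bright rows, 6 had every bright row past 1.5-fold in the higher direction (0.104%), and DDIT4 was one of them. Rows of one gene share the 2 RNA samples, so they do not replace replicate cultures. DDIT4 was also picked with its difference known, and its 2 rows may share probes, so nothing is read from these shares.

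**Figure D2:**
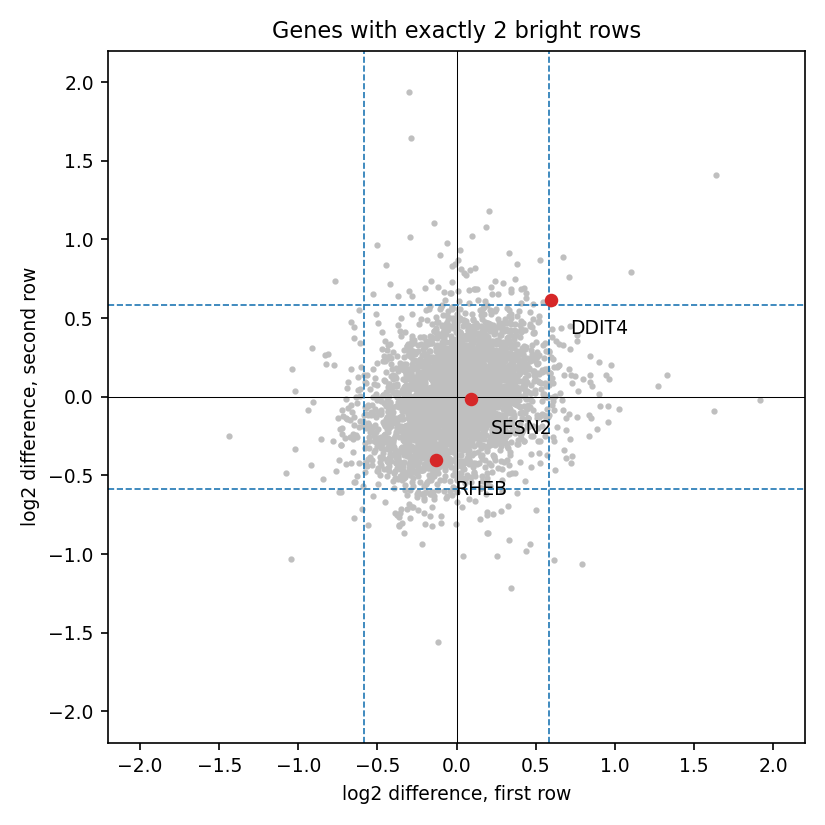
Log2 difference (clofibrate minus DMSO) of one row against the other for 3723 genes with exactly 2 bright rows (grey) and the 3 members among them (red). Dashed lines mark 1.5-fold, and DDIT4 lies just past both lines.

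By the rule on likeness, the genes with at least 2 rows whose levels on both arrays lay nearest to those of DDIT4 were TM9SF4, SNX17, FANCG, SHKBP1 and RXRB. Likeness was the distance between mean log2 levels over 2 arrays, so it describes only these values. TM9SF4 was nearest, at 10.37 with DMSO and 10.92 with clofibrate, against 10.33 and 10.94 for DDIT4. The differences of the 5 ran from 0.39 (SHKBP1) to 0.55 (TM9SF4), all below that of DDIT4.

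DDIT4L (REDD2), the paralog of DDIT4 that also inhibits mTORC1, lay in the opposite direction but near background. Its single row, NM_145244 (chromosome 4, 101326049 to 101330636 on hg18), read 70.7 with DMSO and 32.4 with clofibrate. The clofibrate value lay below the random probes of that array, and the DMSO value was 1.45 times its own random level. With its clofibrate value raised to the random level, DDIT4L was 1.47-fold lower with clofibrate, a bound that does not reach the 1.5-fold threshold. The bound takes the single DMSO reading as exact, so a smaller difference or none was not excluded. As measured, the log2 difference was -1.13, and the SD at similar level was 0.48. At that level, 9.66% of genes passed 1.5-fold in the lower direction and 9.49% in the higher, as measured.

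The sestrins are stress-induced proteins, and SESN2 and SESN1 read nearly the same with DMSO and clofibrate. SESN2, which binds GATOR2 and senses leucine, had intensities of 718 and 766 in row BC013304 and of 614 and 607 in row NM_031459, DMSO first. Its mean log2 difference was 0.04, with rows at 0.09 and -0.02. SESN1, a p53 target, had 1420 and 1229 in row BC112036 and 333 and 363 in row NM_014454. Its rows lay on opposite sides of 0, at -0.21 and 0.12, and their mean was -0.04. The SD at similar level was 0.26 for both genes, larger than either difference.

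SESN3, a FOXO target, was dim, with a level at percentile 31.6 of all genes. Its row BC017296 read 93.6 with DMSO and 132 with clofibrate, and row NM_144665 read 220 and 248. Both rows were higher with clofibrate, by 0.49 and 0.17 on the log2 scale. The mean of 0.33 lay within the SD at similar level of 0.49.

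TSC2, the subunit that turns RHEB off, rested on 1 row, NM_000548, with intensities of 1761 and 2064. It was 0.23 higher on the log2 scale, and the SD at similar level was 0.22. TSC1, which stabilises TSC2, had 3 rows that did not point the same way. Row AB190910 read 271 with DMSO and 311 with clofibrate, row NM_001008567 read 788 and 860, and row NM_000368 read 317 and 240. The log2 differences were 0.20, 0.13 and -0.40. The row that was lower belongs to the transcript model that reaches 18462 bases further at the 3′ end than the next one. That model starts at 134756556 on chromosome 9 (hg18), with the minus strand taken from RefSeq. For RPS6KB1, the row reaching furthest at the 3′ end (NM_003161, by 2240 bases) was instead the highest, at 0.11. Probe positions were not used, so a link between transcript end and row difference was not tested. The mean over the TSC1 rows was -0.02, within the SD of 0.33.

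RHEB, the GTPase that switches mTORC1 on, was lower with clofibrate in both rows. Row NM_005614 read 4081 and 3089, a log2 difference of -0.40, and row BC066307 read 1825 and 1667, a difference of -0.13. The mean was -0.27, or 1.20-fold lower with clofibrate, and the SD at similar level was 0.21. RHEB had the lowest difference of the 8 bright members.

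RPS6KB1 encodes S6K1, the kinase that passes the mTORC1 signal to the ribosome. Its row BC036033 read 1146 with DMSO and 1129 with clofibrate, BC053365 read 1305 and 1056, and NM_003161 read 2493 and 2696. The log2 differences were -0.02, -0.31 and 0.11, and their mean was -0.07 (SD at similar level 0.23). RPS6KB2, which encodes the related kinase S6K2, was higher in all 3 rows. Row BC006106 read 2086 and 2950, row NM_001007071 read 2680 and 2888, and row BC000094 read 3062 and 3170. These were log2 differences of 0.50, 0.11 and 0.05, so 1 row carried most of the mean of 0.22. The SD at similar level was 0.21, and the brightest row gave 0.05.

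Across the set, 5 genes lay above 0 and 5 below. The 8 bright members had a median of 0.01, as did all bright genes. Of these 8, SESN1, SESN2, TSC1 and RPS6KB1 lay within the SD at similar level. TSC2, RPS6KB2 and RHEB lay just outside it, and DDIT4 far outside. At least 2 bright rows were held by 5 members, and for 3 of these (DDIT4, RHEB and RPS6KB2) all bright rows lay on one side of 0. Over all genes with at least 2 bright rows that share was 53.6%.

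**Figure D3:**
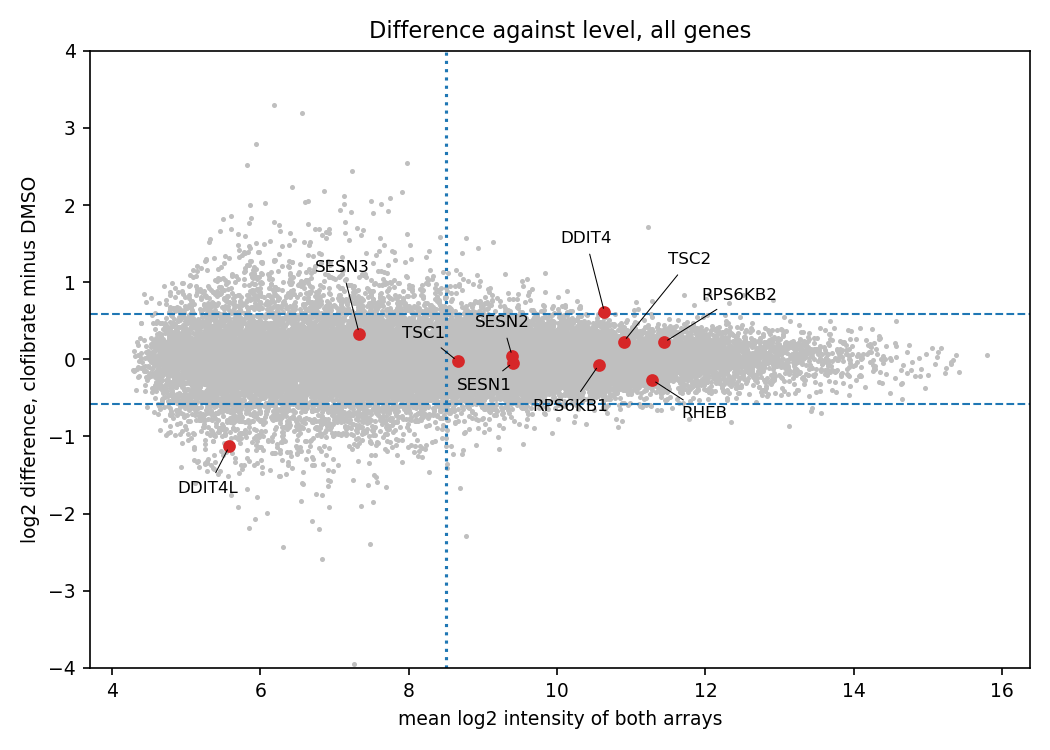
Log2 difference (clofibrate minus DMSO) against the mean log2 intensity of both arrays for all 23595 genes (grey) and the 10 members (red). Dashed lines mark 1.5-fold and the dotted line the median level. DDIT4 sits at 0.61 where few genes lie as high, while DDIT4L at -1.13 sits among scattered dim genes.

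The wider pathway was read from 4 lists of 81 other genes, all of them measured. Of the 67 bright ones, 37 lay above 0 and 30 below, and none was 1.5-fold different in either direction, against 2.64% of all bright genes. Their median was 0.02. Using the brightest row of each gene in place of the mean, AKT1S1 passed, at 0.59.

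Growth factor and energy signals reach TSC2 through kinases such as AKT and AMPK. Of 16 bright genes on that list, 8 lay on each side of 0, with a median of 0.01. The AMPK subunit gene PRKAA2 (-0.23) and the PI3K subunit gene PIK3CB (-0.21) were lowest, and PIK3R2 (0.23) and AKT2 (0.21) were highest. The SD at similar level was 0.22 for PRKAA2 and AKT2, 0.33 for PIK3CB and 0.24 for PIK3R2, so only PRKAA2 lay outside it. PRKAA2 was at 0.01 in its brightest row.

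The amino acid input runs through GATOR, Rag GTPases and Ragulator. Its 24 bright genes were split 12 to 12 around 0, with a median of 0.02. MIOS, a subunit of GATOR2, was at -0.47 with rows at -0.71 and -0.22. LARS1, the leucyl-tRNA synthetase, was at -0.35, and SLC38A9, the lysosomal arginine sensor, at -0.34 with rows at -0.37 and -0.31.

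Among 10 bright subunits and partners of mTORC1 and mTORC2, 7 lay above 0 and 3 below, with a median of 0.05. The kinase gene MTOR was at -0.35 on 1 row, with log2 levels of 11.24 and 10.89. AKT1S1, which encodes the mTORC1 inhibitor PRAS40, was at 0.33 with rows at 0.08 and 0.59. MLST8, a subunit of both complexes, was at 0.28, and its 4 rows lay between 0.27 and 0.29. PRR5, an mTORC2 subunit, was at 0.27, within the SD at similar level of 0.33.

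The 17 bright substrates of mTORC1 and S6 kinase and their partners had a median of 0.14, with 10 above 0 and 7 below. Over all measured members of that list the median was 0.04. PDCD4, a translation repressor that S6 kinase marks for destruction, was at -0.44, and the cap-binding protein gene EIF4E at -0.34. EEF2, the elongation factor, was at 0.39 and CAD, which starts pyrimidine synthesis, at 0.33.

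**Figure D4:**
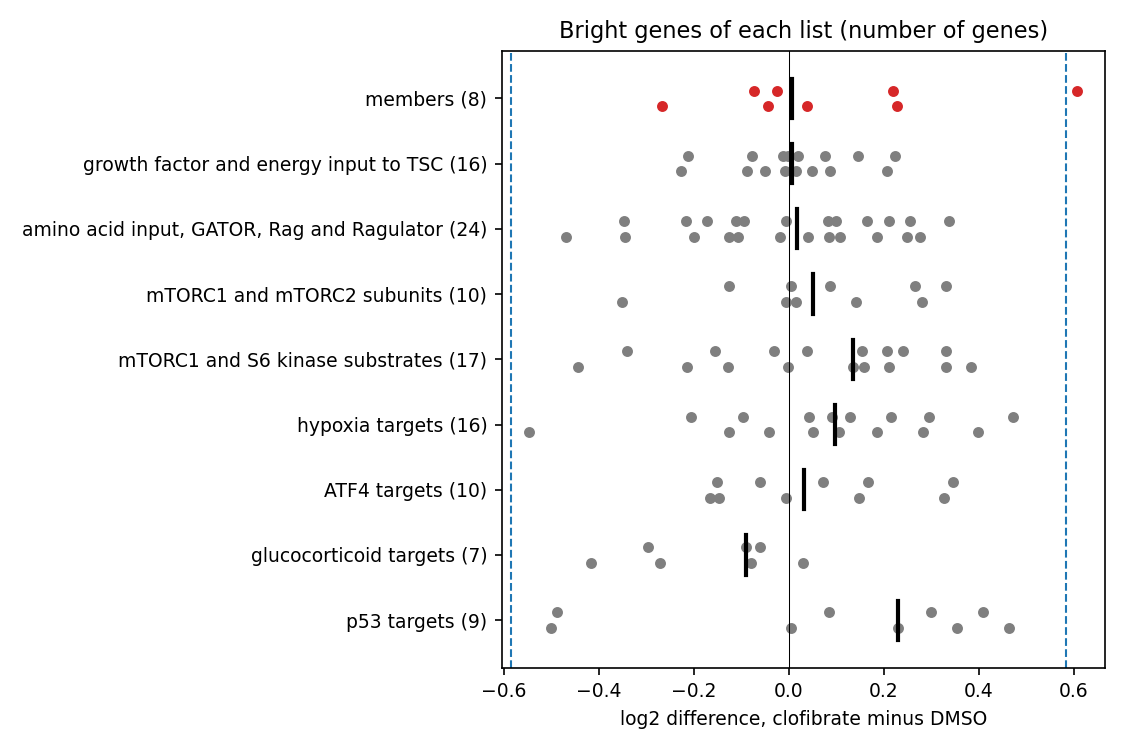
Log2 difference (clofibrate minus DMSO) of each bright gene, with a black bar at the median of each list and dashed lines at 1.5-fold. DDIT4 is the only point past a dashed line. The 4 pathway lists have medians between 0.01 and 0.14.

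A further 4 lists held targets of factors known to induce DDIT4 or sestrins. None of their 42 bright genes was 1.5-fold different, beside 2.64% of all bright genes, a share that would come to about 1 gene of 42. The 16 bright hypoxia targets had a median of 0.10, with 11 above 0. VEGFA was at 0.47 with rows from -0.05 to 1.14, and PGK1 at 0.40 with rows from 0.32 to 0.54. BNIP3L was at -0.55 with rows at -0.90 and -0.19. The 10 bright ATF4 targets were split 5 to 5, with a median of 0.03 that was -0.10 over all measured members. ATF4 itself was at 0.35 with rows at 0.15 and 0.54, the brightest row being at 0.15.

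The 7 bright genes of the glucocorticoid list lay mostly below 0, with 1 above and 6 below and a median of -0.09. SGK1, a kinase, was at -0.42 and FKBP5, a cochaperone of the glucocorticoid receptor, at -0.27 with rows from -0.30 to -0.22. The 9 bright genes of the p53 list had a median of 0.23, with 7 above 0 and 2 below. Among the targets, DDB2, a DNA damage binding protein gene, was at 0.41, and ZMAT3 and TIGAR were at -0.49 and -0.50. Over all bright genes 52.1% lay above 0, with a median of 0.01.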

How the data were processed

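Total RNA of Panc1 cells was labelled with Cy3 and hybridised to 1-colour NimbleGen arrays, 1 per treatment, per the labels. The authors deposited linear-scale intensities made with RMA, per the submitters' processing notes. No version or setting of RMA is given in the sources used here. The 2 arrays share almost the same spread of intensities, and a shift common to most genes could therefore not appear. Per the file headers, 45031 of 45033 rows rested on 3 probes, and positions were on hg18. The deposited series value table held the same intensities.

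Intensities were converted to log2. Of the rows, 42947 had a symbol, updated by gene ID through a RefSeq table (GRCh38.p14). A gene was the mean of its rows. The SD at similar level came from 40 equal bins and describes this pair of arrays only. The members, the lists and the rule for named genes (all members, up to 4 bright genes per list with the largest differences, and the 5 genes nearest to DDIT4) were chosen with earlier results of these data known. A few genes named by this rule are left out of the text. Alternatives were other scalings, removal of a trend with span (loess, fraction 0.3), the brightest row, other thresholds and level filters. The functions were tested on simulated data. Software was R 4.3.3 with limma 3.58.1, and Python 3.11.15 with pandas 2.3.3, numpy 2.4.6 and matplotlib 3.10.9.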

Additional observations from a re-analysis of the deposited data

How the results depend on the processing

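With 1 array per treatment, no array could be left out. No paired analysis was possible because there was only 1 array of each kind. The DDIT4 difference stayed between 0.58 and 0.61 under 7 alternatives (centring, quantile normalization, loess on level, loess on span, brightest row, series value table, dim rows left out). Some of these could not move it: the series value table held the same intensities, and no DDIT4 row lay at or below the random probes. Centring left it at 0.61, since the arrays were already on 1 scale. DDIT4L, RHEB, RPS6KB2, SESN2, SESN3 and TSC2 kept their sign under every alternative that gave a value, and DDIT4L had none once dim rows were left out. The small differences of SESN1, TSC1 and RPS6KB1 crossed 0 under some of them, with ranges of -0.21 to 0.03, -0.02 to 0.13 and -0.08 to 0.11.

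The count of members at least 1.5-fold different was 2 as measured (DDIT4 and DDIT4L), and 3 at a log2 difference of 0.32 or more, with SESN3. It was 1 (DDIT4) with dim rows left out, over bright genes, and with DDIT4L at its bound, an alternative chosen after seeing the data. As measured it was 1 (DDIT4L) with loess on span and 1 (DDIT4L) at 2-fold. With DDIT4L at its bound, also chosen after seeing the data, it was 0 at 2-fold and 1 with loess on span, where the bound itself was -0.61 on the log2 scale. The count of bright pathway genes was 0. It was 1 with the brightest row (AKT1S1), and 1 over all 81 measured pathway genes (IRS2), beside 9.15% of all genes. At a log2 difference of 0.32 or more it was 11, which is 16.4% of the bright pathway genes beside 18.7% of all bright genes. The count over all genes was 2158, and it was 457 at 2-fold, 6843 at a log2 difference of 0.32 and 311 over bright genes. No scaling moved the median of all genes by over 0.1. The scalings had little to move, since both arrays already had a median intensity of 402, so nothing is read from this. Values near the random probes are limited by signal over background, as for DDIT4L.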

Other observations

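These values were picked after they had been seen. Besides DDIT4, the genes with at least 2 bright rows and every bright row at least 1.5-fold higher were ARHGEF25 (1.53), ZFP82 (0.95), SF3A2 (0.78), POMZP3 (0.74) and GLYCTK (0.59). Another 6 genes had every bright row at least 1.5-fold lower, with ELF2, an ETS family transcription factor, lowest at -1.04.

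IRS2, an adaptor of insulin signalling upstream of mTORC1, was the one dim gene of the pathway lists past 1.5-fold. That is 1 of the 81 measured pathway genes, beside 9.15% of all genes, so nothing is read from the count. Its row NM_003749 read 37.3 with DMSO, below the random probes, and 82.5 with clofibrate. With the DMSO value raised to the random level, IRS2 was 1.69-fold higher, a bound that takes the single clofibrate reading as exact.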
